A study of Mus musculus with 24 samples.

Results

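The genes described here are 9 enzymes of serine synthesis and one-carbon metabolism, *Phgdh*, *Psat1*, *Psph*, *Shmt1*, *Shmt2*, *Mthfd1*, *Mthfd1l*, *Mthfd2* and *Aldh1l2*. They were taken by gene symbol from the deposited table of estimated counts, which holds 55487 genes. All 9 were among the 15401 genes with enough counts to be tested.

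mRNA-seq was carried out on mouse embryonic fibroblasts (MEFs) of the wild type (WT) and on MEFs lacking both *Tfeb* and *Tfe3* (*tfeb tfe3* DKO), the transcription factors that drive lysosomal and autophagy genes. Cells of each genotype received vehicle (0.1% DMSO), 100 nM torin1, a catalytic inhibitor of MTOR, or 10 μM MK-8722, a direct activator of AMPK, and how long the sequenced cells were treated is not given in the sources used here. Each of the 6 groups had 4 libraries, 1 from each of 4 passages of the culture, which were passages 7, 8, 9 and 11 in WT and 8, 9, 10 and 11 in DKO. Values below that are given library by library follow that order of passages. Each genotype was a cell line obtained from another laboratory, so a difference between genotypes cannot be told apart from a difference between the lines. The replicates of a group are cultures of 1 line, and p-values measure the spread between those cultures.

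Serine is made from the glycolytic intermediate 3-phosphoglycerate in successive steps by PHGDH, PSAT1 and PSPH. SHMT1 in the cytosol and SHMT2 in mitochondria then split serine into glycine and a one-carbon unit bound to folate. The MTHFD enzymes interconvert the forms of this unit for the synthesis of purines, thymidylate and formate. ALDH1L2 is a mitochondrial dehydrogenase that acts on the formyl form. Transcription of several of these genes is known to depend on the transcription factor ATF4, whose synthesis MTORC1 promotes.

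The libraries held 24668870 to 33332507 counts on genes. *Tfeb* stood at 20.9 to 25 on the counts-per-million (CPM) scale in WT with DMSO and at 1.95 to 2.65 CPM in DKO with DMSO. *Tfe3* mRNA was not lower in DKO, at 121 to 126 CPM against 119 to 122 CPM in WT with DMSO, and since the deleted part of the gene is not given in the sources used here, its count checks nothing. The 8 fibroblast markers summed to 5740 to 9800 CPM in every library, and those of epithelial, blood, endothelial, muscle and neural cells to at most 37.1 CPM. *Vim*, *Fn1*, *Col1a1* and *Col1a2* were the highest of the 8, at 205 CPM or more in every library. *Pdgfrb* stood at 29.4 to 78 CPM, *Pdgfra* at 4.21 to 177, *Col3a1* at 8.99 to 55.6 and *Thy1* at only 0 to 4.51. The 14 proliferation genes summed to between 5120 and 5280 CPM in the WT controls, and lower under MK-8722 (between 4560 and 4740) and torin1 (between 4860 and 5060). In DKO the sums lay between 5150 and 5300 CPM in the controls, between 5080 and 5330 under MK-8722 and between 5420 and 5510 under torin1, and the part of these genes in the results was not tested. The 15 interferon-stimulated genes summed to 2020 to 2440 CPM in the WT libraries of passage 11 and to 1930 to 3760 CPM in all DKO libraries, but to 124 to 406 CPM in the other WT libraries. RNA integrity numbers lay between 9.7 and 9.9, except for 7.9 in the DKO MK-8722 library of passage 10.

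The promoters of the genes with the largest and the smallest change with torin1 are shown first, because the members moved together with that compound. Windows of 300 bases, from 250 bases before to 50 bases after a transcript's start, were taken from RefSeq (GRCm38.p6) and were matched by symbol for 8 of the 9 genes, with a pair of windows for *Psat1*. *Aldh1l2* was not matched. The 250 bases before the start are printed here 5′ to 3′, with matches to CCAAT or its reverse complement ATTGG in capitals.

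*Psph* (chr5:129787254-129787503, minus strand): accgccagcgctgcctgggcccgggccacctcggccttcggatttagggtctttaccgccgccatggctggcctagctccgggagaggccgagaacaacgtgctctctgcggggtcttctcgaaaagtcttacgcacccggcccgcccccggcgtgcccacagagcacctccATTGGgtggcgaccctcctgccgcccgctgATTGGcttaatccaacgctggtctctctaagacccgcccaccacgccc

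*Mthfd2* (chr6:83317605-83317854, minus strand): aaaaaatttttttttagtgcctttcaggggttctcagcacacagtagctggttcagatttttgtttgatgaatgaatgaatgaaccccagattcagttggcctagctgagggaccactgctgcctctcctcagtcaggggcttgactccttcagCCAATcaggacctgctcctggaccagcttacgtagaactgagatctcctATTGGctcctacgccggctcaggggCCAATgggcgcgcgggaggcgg

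*Shmt1* (chr11:60811266-60811515, minus strand): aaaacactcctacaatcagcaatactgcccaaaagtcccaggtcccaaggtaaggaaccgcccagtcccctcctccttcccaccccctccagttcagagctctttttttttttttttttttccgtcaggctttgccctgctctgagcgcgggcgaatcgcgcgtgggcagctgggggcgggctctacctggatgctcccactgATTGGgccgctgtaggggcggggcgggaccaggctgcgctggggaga

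*Mthfd1* (chr12:76254982-76255231, plus strand): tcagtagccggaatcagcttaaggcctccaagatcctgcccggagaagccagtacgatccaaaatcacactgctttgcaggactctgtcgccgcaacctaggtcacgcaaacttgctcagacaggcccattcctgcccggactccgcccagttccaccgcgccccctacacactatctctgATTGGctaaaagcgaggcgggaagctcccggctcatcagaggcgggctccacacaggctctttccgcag

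Of the motifs searched on both strands, none of the 8 genes held TGATGNAA, the core of the C/EBP-ATF response element, which 3.97% of all 32851 windows of that length held. None held CACGTG, the E-box core, found in 7.15% of windows, or TCACGTGA, the longer E-box that contains it and that TFEB and TFE3 bind, found in 0.974%. CCAAT was added after these windows were seen, and it occurred in 6 of the 8 genes and in 37.4% of all windows. In the *Mthfd2* window it stood 96, 47 and 22 bases before the start, and in the *Psph* window 78 and 48 bases before it. The absence of a motif says only that these letters are not in these windows.

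**Figure D1:**
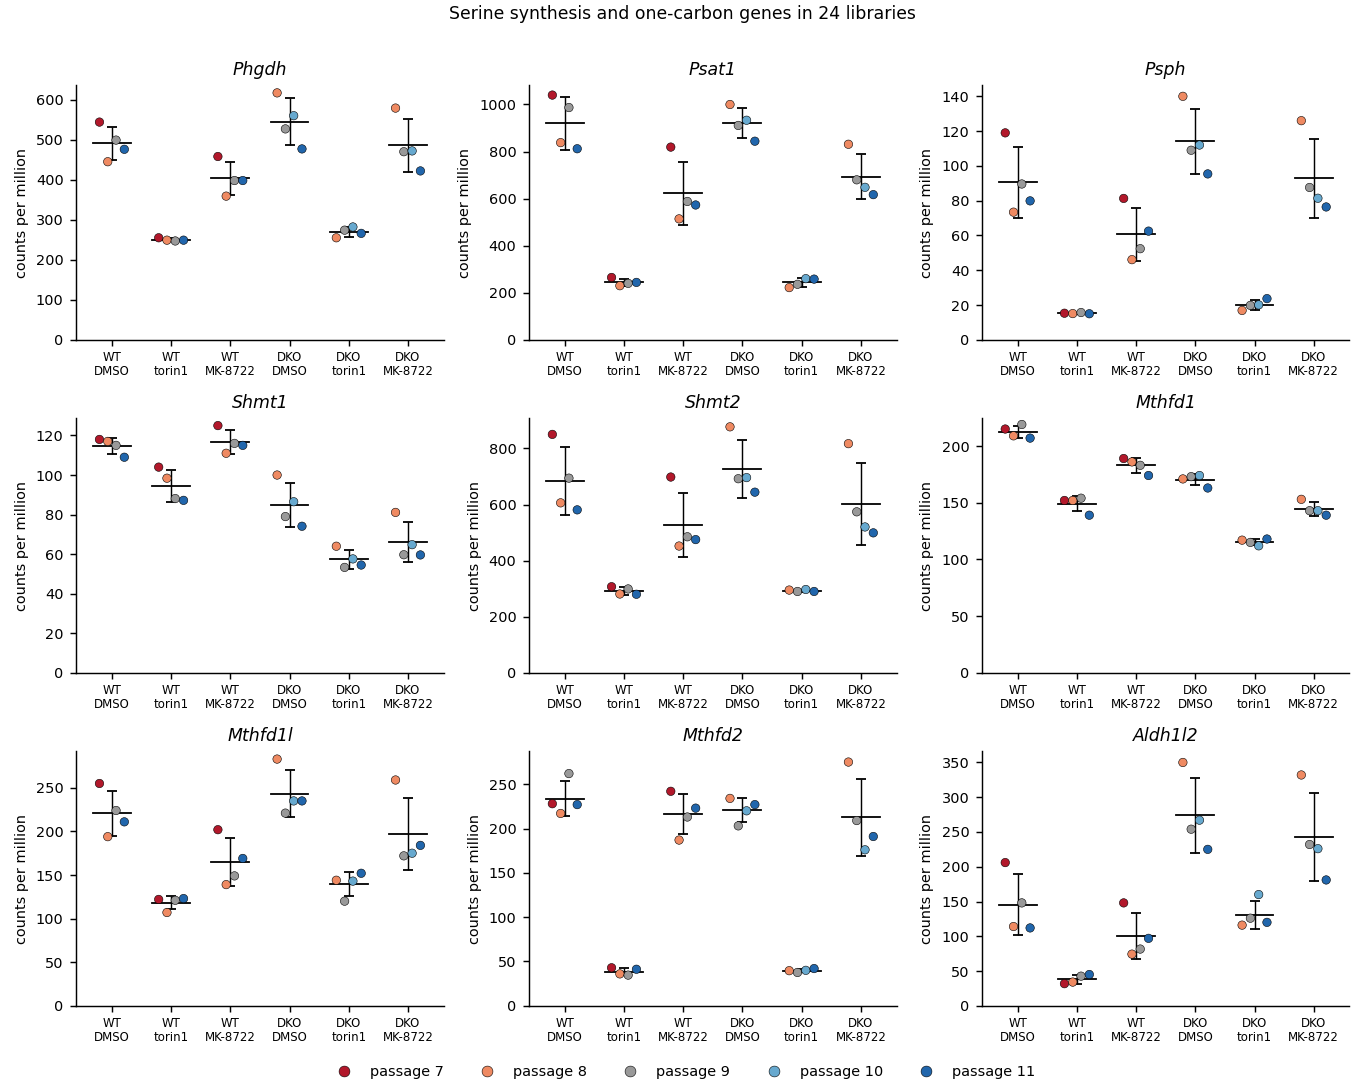
CPM (vertical axes, from 0) of each of the 9 genes in the 6 groups of genotype and treatment. Points are the 24 libraries coloured by passage, horizontal bars are group means and error bars are 1 SD (n = 4); the torin1 libraries lie below the DMSO libraries of the same genotype in all 9 panels, and the earliest passage is the highest point of most DMSO and MK-8722 groups.

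Torin1 lowered every one of the 9 genes in WT MEFs and every one in *tfeb tfe3* DKO MEFs. The fall ranged from 6.02-fold for *Mthfd2* to 1.22-fold for *Shmt1* in WT, and from 5.67-fold for *Psph* to 1.47-fold for *Mthfd1* in DKO. Calls required a fold change of at least 1.2 and an FDR under 0.05, where FDR is the p of edgeR's quasi-likelihood test after Benjamini-Hochberg adjustment across all 15401 genes. By this rule 20.5% of all genes were called lower with torin1 in WT and 20.2% in DKO, and 26.6% and 23% were called higher. In such bulk libraries fewer expressing cells and less RNA per cell cannot be told apart. The median log2 fold change of the 9 genes was -1.23 in WT and -1.07 in DKO, and that of all genes tested was 0.05 and 0.02.

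**Figure D2:**
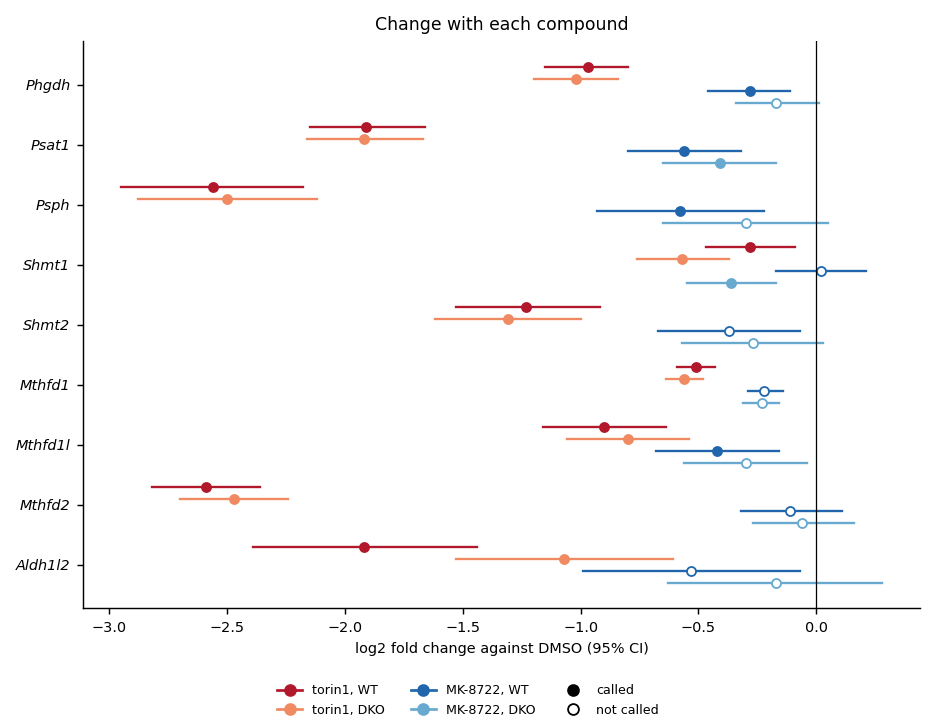
Log2 fold change (horizontal axis) of each gene with torin1 and with MK-8722 against DMSO in WT and DKO MEFs, with the 95% confidence interval as a line. Filled points were called changed and open points were not; the torin1 changes of both genotypes lie left of 0 throughout, from -2.59 to -0.28.

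Of the serine synthesis enzymes, *Psph*, which encodes the phosphatase of the last step, fell the most. It stood at 119, 73.4, 89.6 and 79.9 CPM in WT with DMSO, and at 15.3, 15.1, 15.7 and 15 CPM with torin1. In DKO it stood at 140, 109, 112 and 95.4 CPM with DMSO and at 16.9, 19.8, 20.1 and 23.7 CPM with torin1. The groups were far apart in both genotypes. The torin1 libraries lay closer to each other relative to their mean than the DMSO libraries did in WT (coefficient of variation 2.01% against 22%), while in DKO the spread was 14% against 16.5%. The log2 fold change was -2.56 ± 0.19 (SE, FDR = 5.87e-11) in WT and -2.5 ± 0.18 (FDR = 8.91e-11) in DKO.

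*Psat1*, which encodes the aminotransferase of the middle step, stood at 1040, 838, 987 and 812 CPM in WT with DMSO and at 265, 230, 240 and 244 CPM with torin1. In DKO the values were 1000, 911, 933 and 844 CPM with DMSO and 222, 236, 260 and 258 CPM with torin1. The genotypes overlapped under DMSO and under torin1, and no torin1 library came near a DMSO library. *Psat1* fell by 1.91 ± 0.12 on the log2 scale in WT (FDR = 4.52e-12) and by 1.92 ± 0.12 in DKO (FDR = 5.07e-12).

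*Phgdh*, which encodes the dehydrogenase of the first, committed step, fell less than the other serine synthesis enzymes, from 445 to 544 CPM with DMSO to 247 to 255 CPM with torin1 in WT and from 477 to 617 CPM to 255 to 282 CPM in DKO. Its log2 fold change was -0.97 ± 0.09 in WT (FDR = 1.53e-09) and -1.02 ± 0.09 in DKO (FDR = 8.46e-10). The counts of *Phgdh* are less certain than those of the other members. Of the 52-base stretches of its transcripts, 46.8% also occur in transcripts of other genes, mostly processed pseudogenes, against at most 1.12% for any other member. With the counts of the 18 near-copies found in the table added, which made up 24.2 to 26.3% of the sum, *Phgdh* was still called lower with torin1 in both genotypes.

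Of the enzymes that split serine, mitochondrial *Shmt2* fell more than cytosolic *Shmt1*. *Shmt2* stood at 850, 606, 694 and 581 CPM in WT with DMSO and at 307, 281, 299 and 280 CPM with torin1, and at 877, 692, 696 and 644 CPM against 295, 290, 297 and 290 CPM in DKO. The torin1 libraries of both genotypes thus lay within 280 to 307 CPM, although their DMSO controls differed between passages. The log2 fold change was -1.23 ± 0.15 in WT (FDR = 1.95e-07) and -1.31 ± 0.15 in DKO (FDR = 7.92e-08).

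*Shmt1* stood at 118, 117, 115 and 109 CPM in WT with DMSO and at 104, 98.4, 88.1 and 87.2 CPM with torin1. In DKO it stood at 100, 79, 86.5 and 74.1 CPM with DMSO and at 64, 53.3, 57.6 and 54.5 CPM with torin1. Neither genotype's groups overlapped, but the gap in WT was small. The log2 fold change was -0.28 ± 0.09 in WT (FDR = 0.0108) and -0.57 ± 0.09 in DKO (FDR = 1.57e-05). The WT call did not hold without the passage 9 torin1 library, where the log2 fold change of -0.25 (FDR = 0.0376) was under 1.2-fold, or with library size alone as the scaling (-0.19, FDR = 0.0638).

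Of the folate enzymes, mitochondrial *Mthfd2*, which encodes the methylenetetrahydrofolate dehydrogenase and cyclohydrolase, fell the most. It stood at 228, 217, 262 and 227 CPM in WT with DMSO and at 42.9, 36, 34.6 and 41.2 CPM with torin1. In DKO it stood at 234, 203, 220 and 227 CPM with DMSO and at 39.6, 37.6, 40 and 42 CPM with torin1. The values of the genotypes were interleaved under each treatment. Its log2 fold change was -2.59 ± 0.11 in WT (FDR = 1.65e-14) and -2.47 ± 0.11 in DKO (FDR = 3.97e-14).

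*Aldh1l2*, which encodes the mitochondrial 10-formyltetrahydrofolate dehydrogenase, stood at 206, 114, 148 and 112 CPM in WT with DMSO and at 31.8, 34.1, 42.6 and 45 CPM with torin1. In DKO it stood at 350, 254, 267 and 225 CPM with DMSO and at 116, 126, 160 and 120 CPM with torin1. Every DKO library was above every WT library of the same treatment, and the torin1 libraries of DKO lay within the range of the WT DMSO libraries. *Aldh1l2* fell by 1.92 ± 0.23 on the log2 scale in WT (FDR = 1.69e-07) and by 1.07 ± 0.22 in DKO (FDR = 0.000231).

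*Mthfd1l*, which encodes the mitochondrial formyltetrahydrofolate synthetase, fell from 194 to 255 CPM to 107 to 123 CPM in WT (log2 fold change -0.9 ± 0.13, FDR = 1.67e-06) and from 221 to 283 CPM to 120 to 152 CPM in DKO (-0.8 ± 0.13, FDR = 9.15e-06). *Mthfd1*, which encodes the cytosolic enzyme that carries out all 3 of the folate interconversions, moved least of the folate enzymes but was the steadiest between libraries. It fell from 213 ± 5.35 to 149 ± 6.94 CPM (SD, n = 4) in WT (-0.51 ± 0.04, FDR = 7.81e-11) and from 170 ± 5.16 to 116 ± 2.51 CPM in DKO (-0.56 ± 0.04, FDR = 2.31e-11).

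Levels per length show how the balance between compartments moved. On the transcripts-per-million (TPM) scale, *Shmt2* was 5.72 ± 0.949 times *Shmt1* in WT with DMSO (SD, n = 4) and 2.86 ± 0.184 times with torin1, and in DKO 8.14 ± 0.206 and 4.79 ± 0.282 times. *Mthfd2* was 1.79 ± 0.114 times *Mthfd1* in WT with DMSO and 0.437 ± 0.0519 times with torin1, and in DKO 2.16 ± 0.169 and 0.572 ± 0.0407 times. In these pairs the ratio was lower with torin1 in both genotypes, and the libraries of the groups did not overlap. *Mthfd1l* was 0.862 ± 0.0685 times *Mthfd1* in WT with DMSO and 0.661 ± 0.0474 times with torin1, without overlap, but in DKO the ratios of 1.2 ± 0.153 and 1.01 ± 0.11 overlapped. With DMSO, *Psat1* had the highest mean TPM of the members (722 ± 94 in WT and 714 ± 38.5 in DKO). It was followed by *Phgdh* (561 ± 51.3 and 613 ± 65.1) and *Shmt2* (556 ± 100 and 581 ± 73), which did not differ beyond their spread. The *Psat1* libraries, from 630 in WT and 666 in DKO, overlapped those of *Phgdh* (up to 632 and 695) and *Shmt2* (up to 695 and 688). Below them in WT came *Mthfd2* (218 ± 17.1), *Psph* (160 ± 41.3), *Mthfd1* (122 ± 3.67), *Mthfd1l* (105 ± 10.9) and *Shmt1* (97.3 ± 6.12), of which *Psph* overlapped *Mthfd2* and *Mthfd1*, and *Mthfd1l* overlapped both of its neighbours. The lowest in TPM with DMSO were *Aldh1l2* in WT (46.1 ± 13.7) and *Shmt1* in DKO (71.3 ± 7.39). With torin1 the lowest were *Aldh1l2* in WT (14 ± 2.39) and *Psph* in DKO (33.8 ± 7.69). In DKO the libraries of *Shmt1* with DMSO overlapped those of *Aldh1l2*, and *Psph* with torin1 overlapped *Mthfd2* and *Aldh1l2*. The TPM of *Phgdh* did not include its near-copies, which held 24.2 to 26.3% of the summed counts, so its rank is uncertain.

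The share of single annotated transcripts in the gene's TPM was also read for the genes that fell more than *Shmt2* with torin1 in WT. The leading transcript of *Psat1* held 41.7 to 44.7% of the gene's TPM in WT with DMSO and 40.3 to 44.5% with torin1, and 41.5 to 45.8% and 40 to 44.9% in DKO. That of *Mthfd2* held 61.6% ± 2.05 and 56.8% ± 1.66 in WT (SD, n = 4), but in DKO the libraries overlapped, at 59 to 61.5% with DMSO and 49.9 to 62.6% with torin1. For *Psph*, a transcript annotated as retaining an intron held 35.6% ± 0.919 and 29.4% ± 0.869 in WT, whereas in DKO it held 37.3 to 39.4% with DMSO and 22.1 to 45.1% with torin1. The lower shares of these *Mthfd2* and *Psph* transcripts in WT were thus not seen in all DKO libraries. The leading transcript of *Psph* instead held a higher share with torin1. It held 37.1 to 42.5% with DMSO and 43.1 to 49.6% with torin1 in WT, and 36.6 to 39.3% and 39.7 to 58.9% in DKO. For *Aldh1l2* the leading transcript held 58.9% ± 4.59 with DMSO and 50.7% ± 2.82 with torin1 in WT, and 52.9 to 59.9% and 52.7 to 63.6% in the DKO libraries. These shares were not tested.

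*Atf4* mRNA stood at 501, 477, 542 and 532 CPM in WT with DMSO and at 183, 182, 187 and 203 CPM with torin1, and at 467, 393, 437 and 427 CPM against 162, 150, 156 and 146 CPM in DKO. It fell by 1.44 ± 0.1 on the log2 scale in WT (FDR = 2.41e-11) and by 1.49 ± 0.1 in DKO (FDR = 1.71e-11). *Myc*, which encodes another transcription factor known to act on one-carbon genes, was not called with torin1 (0.16 ± 0.13, FDR = 0.309 in WT and 0.28 ± 0.13, FDR = 0.0793 in DKO). Of 30 ATF4 targets outside serine and folate metabolism, 29 were called lower with torin1 in WT and 27 in DKO and none higher, with a median of -1.54 in both. Among them *Asns*, the asparagine synthetase, fell by 1.76 in WT and by 1.57 in DKO, *Trib3*, a pseudokinase, by 3.94 and by 4.12, and *Slc7a11*, the cystine transporter, by 5 and by 4.64 on the log2 scale.

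Of 36 other genes of serine, glycine and folate metabolism tested, 15 were called lower and 7 higher with torin1 in WT, with a median of -0.21, and 14 lower and 4 higher in DKO, with a median of -0.17. The glycine transporter *Slc6a9* fell by 2.92 ± 0.36 on the log2 scale in WT and by 2.8 ± 0.36 in DKO, and the neutral amino acid transporter *Slc1a4*, which carries serine, fell by 1.87 and by 2. *Mat2a*, which encodes the enzyme that makes S-adenosylmethionine, fell by 1.09 and by 1.21, and *Tyms*, the thymidylate synthase, by 0.63 and by 0.58. *Paics*, of purine synthesis, rose by 0.41 in WT and 0.57 in DKO, and *Sfxn3*, a mitochondrial serine transporter, rose by 0.59 and 0.73. Genes of this wider list were called in both directions.

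The torin1 response was then compared between genotypes, to ask whether it depended on TFEB and TFE3. None of the 9 genes was called for a different response in DKO, where 4.68% of all genes were called with a higher and 6.33% with a lower log2 fold change than in WT. Before adjustment, edgeR's test was under 0.05 for 2 of the 9, *Aldh1l2* and *Shmt1*, and voom (limma) and the Wald test of DESeq2 each called 0. For *Aldh1l2* the fall was 0.85 smaller in DKO on the log2 scale (95% confidence interval 0.2 to 1.49, FDR = 0.072), and for *Shmt1* it was larger, with a difference of -0.28 (-0.55 to -0.01, FDR = 0.156). For *Psat1* the difference was -0.01 (-0.34 to 0.33), for *Phgdh* -0.05 (-0.3 to 0.2), for *Mthfd2* 0.12 (-0.19 to 0.43) and for *Psph* 0.06 (-0.46 to 0.58).

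These differences moved with the handling of passage. With passage as a block within each genotype, both *Aldh1l2* (0.83, FDR = 0.0103) and *Shmt1* (-0.28, FDR = 0.00106) were called, against 6.74% of all genes called higher and 8.63% called lower in that fit. Within passages, *Aldh1l2* changed with torin1 by -2.69, -1.74, -1.79 and -1.32 in WT and by -1.59, -1.02, -0.74 and -0.91 in DKO, and the genotypes overlapped. *Shmt1* changed by -0.18, -0.25, -0.39 and -0.32 in WT and by -0.65, -0.57, -0.59 and -0.44 in DKO, without overlap. *Aldh1l2* was also called without the DKO libraries of passage 8 (1.05, FDR = 0.0306) and without the WT libraries of passage 11 (1.08, FDR = 0.0311), the ones with high interferon-stimulated genes. It was called as well when any 1 of 5 libraries was left out, which were the WT DMSO and WT torin1 libraries of passage 11, the WT MK-8722 library of passage 7 and the DKO DMSO and DKO MK-8722 libraries of passage 8, at 0.86 to 0.98.

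MK-8722 had a smaller effect than torin1 on these genes, and all that were called fell. In WT it lowered 4 of 9, *Psat1* by 1.48-fold, *Psph* by 1.49-fold, *Mthfd1l* by 1.34-fold and *Phgdh* by 1.22-fold, against 5.87% of all genes called lower and 10.3% called higher. In DKO it lowered 2 of 9, *Psat1* by 1.33-fold and *Shmt1* by 1.28-fold, against 3.21% called lower and 5.47% called higher. The median log2 fold change of the 9 genes was -0.37 in WT and -0.27 in DKO, and that of all genes was -0.01 and 0. *Mthfd1* passed the FDR in both genotypes (-0.22 ± 0.04, FDR = 0.000104 in WT and -0.23 ± 0.04, FDR = 0.000148 in DKO) but not the fold change.

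*Psat1* stood at 819, 514, 588 and 573 CPM in WT with MK-8722 and at 831, 680, 648 and 617 CPM in DKO. Only the earliest passage of WT reached into the range of the DMSO libraries, and in DKO none did. The log2 fold change was -0.56 ± 0.11 in WT (FDR = 0.000574) and -0.41 ± 0.11 in DKO (FDR = 0.0128). *Psph* stood at 81.3, 46.1, 52.4 and 62.5 CPM in WT with MK-8722 and at 126, 87.6, 81.4 and 76.4 CPM in DKO. Both sets overlapped the DMSO libraries, and the fold change was called in WT (-0.58 ± 0.17, FDR = 0.0125) but not in DKO (-0.3 ± 0.17, FDR = 0.238). The WT call was lost without the DMSO library of passage 7 (-0.42, FDR = 0.0679), without the MK-8722 library of passage 8 (-0.48, FDR = 0.051) and in a fit of only the groups compared (-0.57, FDR = 0.0512).

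*Mthfd2*, the gene with the largest fall with torin1 in WT, was not called with MK-8722. It stood at 242, 187, 213 and 223 CPM in WT and at 275, 209, 176 and 191 CPM in DKO, around the DMSO values. The log2 fold change was -0.11 (95% confidence interval -0.32 to 0.11) in WT and -0.06 (-0.27 to 0.16) in DKO. *Atf4* mRNA with MK-8722 was 482, 460, 512 and 513 CPM in WT and 498, 329, 315 and 343 CPM in DKO, and it was not called in either genotype (FDR = 0.693 and FDR = 0.12). Of the 30 ATF4 targets outside the pathway, 7 were called lower and 2 higher with MK-8722 in WT, with a median of -0.27, and 1 lower and none higher in DKO, with a median of -0.2. Of the 36 other pathway genes, 4 were called lower and 2 higher in WT, and 2 lower and 1 higher in DKO.

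**Figure D3:**
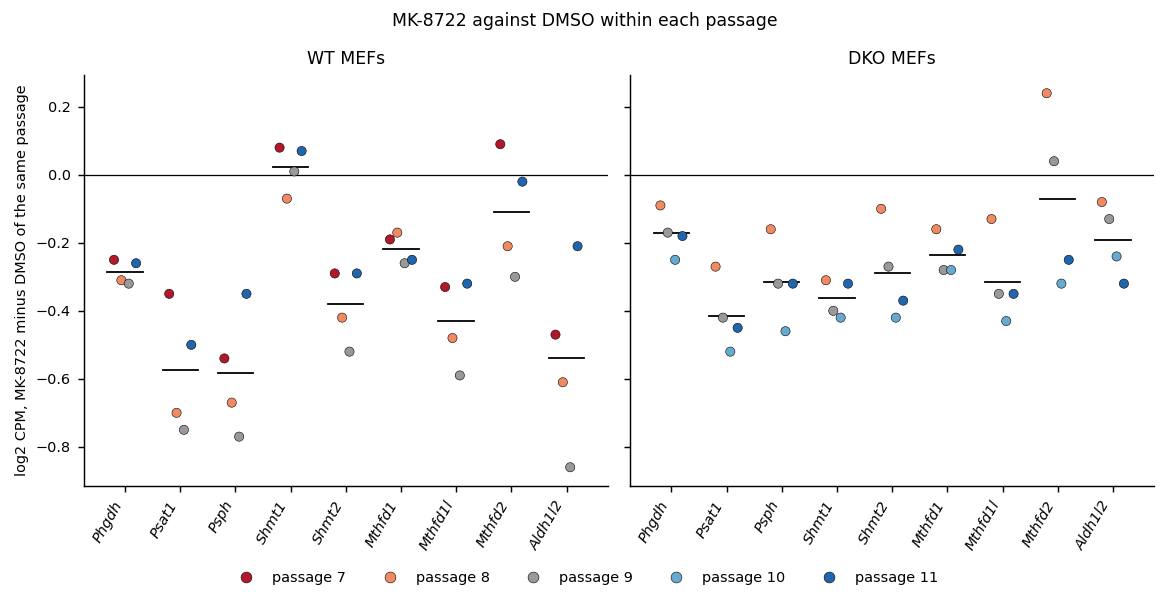
Difference in log2 CPM (vertical axis) between the MK-8722 library and the DMSO library of the same passage, for each gene in WT (left) and DKO (right) MEFs. Points are the 4 passages and bars their means; *Psat1* and *Psph* are below 0 in all passages of both genotypes, whereas *Shmt1* lies around 0 in WT (-0.07 to 0.08) and between -0.42 and -0.31 in DKO.

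With DMSO and MK-8722, the libraries of the earliest passage, passage 7 in WT and passage 8 in DKO, were the highest for most of these genes. They were the highest of their group for 7 of 9 genes in WT with DMSO, 9 of 9 in WT with MK-8722, 8 of 9 in DKO with DMSO and 9 of 9 in DKO with MK-8722. With torin1 this was so for 5 of 9 genes in WT and 1 of 9 in DKO. How many of all genes were highest in the libraries of the earliest passage was not counted. The DKO MK-8722 library of passage 8 stood above its group mean by a median of 0.39 on the log2 scale over the 9 genes, and the WT MK-8722 library of passage 7 by 0.31. In the DKO torin1 library of passage 8 the median deviation was -0.01.

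With passage as a block, MK-8722 lowered 6 of 9 genes in WT, against 7.29% of all genes in that fit, and 5 of 9 in DKO, against 4.24%. The genes added were *Shmt2* (-0.38, FDR = 0.00073) and *Aldh1l2* (-0.54, FDR = 0.00911) in WT, and *Psph* (-0.31, FDR = 0.0368), *Shmt2* (-0.29, FDR = 0.0094) and *Mthfd1l* (-0.31, FDR = 0.0015) in DKO. Within passages, *Shmt2* changed by -0.29, -0.42, -0.52 and -0.29 in WT and by -0.1, -0.27, -0.42 and -0.37 in DKO. Without the DKO libraries of passage 8 the number called in DKO was 4 of 9, and without the earliest passage of both genotypes it was 6 in WT and 5 in DKO. Of all genes, 599 of 15601 were called lower in DKO in the first of these fits, against 495 of 15401 with all libraries. In the second, 993 of 15440 were called lower in WT and 588 in DKO. Single libraries also decided the number. *Shmt2* was called in WT without any 1 of 5 libraries (-0.55 to -0.37), which were the DMSO libraries of passages 8 and 11 and the MK-8722 library of passage 7 in WT and the DMSO and MK-8722 libraries of passage 8 in DKO. The number called was 2 in WT without the DMSO library of passage 7 or without the MK-8722 library of passage 8, where *Psph* and *Phgdh* (-0.23, FDR = 0.0534 and -0.24, FDR = 0.0495) lost their calls, and in DKO it was 7 without the MK-8722 library of passage 8 and 1 without that of passage 11.

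*Shmt1* was the member whose MK-8722 response looked most unlike between genotypes. It stood at 125, 111, 116 and 115 CPM in WT with MK-8722 and at 81.1, 59.7, 64.8 and 59.6 CPM in DKO. The WT values were around those with DMSO (0.02 ± 0.09 on the log2 scale, FDR = 0.884), and all but the earliest passage of DKO lay below the DMSO range (-0.36 ± 0.09, FDR = 0.0079). The difference in response was -0.38 (95% confidence interval -0.65 to -0.11) and was not called in edgeR's test (FDR = 0.0893), and none of the 9 genes was, against 1.42% of all genes called higher and 4.08% called lower. With passage as a block *Shmt1* alone was called (-0.38, FDR = 5.62e-05), where 5.88% of all genes were called lower. It was also called without the DKO DMSO library of passage 11 (-0.44, FDR = 0.0382), without the DKO MK-8722 library of passage 8 (-0.49, FDR = 0.00648), without all DKO libraries of passage 8 (-0.41, FDR = 0.00585) and in DESeq2's Wald test (-0.37, FDR = 0.0441), whereas limma's voom called 0 of 9. Before adjustment it was the 1 member under 0.05 in edgeR's test.

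Torin1 and MK-8722, compared directly within a genotype, differed for all 9 genes in WT and for 8 in DKO, all lower with torin1, against 20% and 19.3% of all genes called lower and 24.9% and 21.1% called higher. The difference was largest for *Mthfd2*, at -2.48 ± 0.11 on the log2 scale in WT (FDR = 5.66e-14) and -2.42 ± 0.11 in DKO (FDR = 7e-14). *Psph* differed by -1.98 ± 0.18 in WT and -2.2 ± 0.18 in DKO. *Shmt1* in DKO was not called (-0.21, 95% confidence interval -0.4 to -0.02, FDR = 0.0615). In WT the calls of *Shmt1* (-0.31) and *Mthfd1* (-0.29) were lost under some other settings, given at the end. The compounds were used at 1 concentration each and are unlike in structure and target, so these values compare treatments and not potencies.

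**Figure D4:**
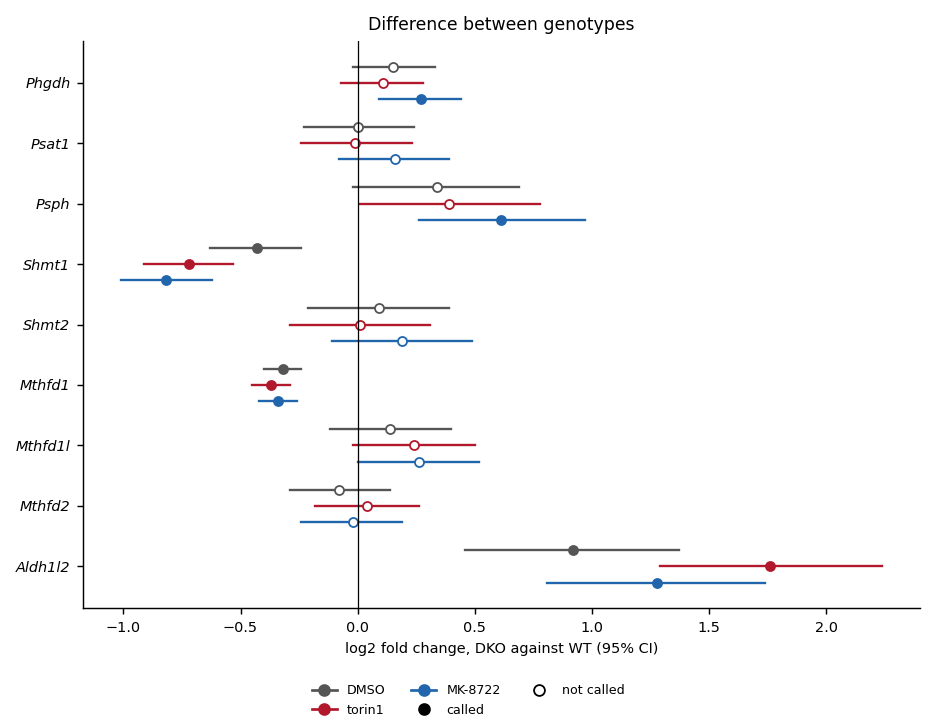
Log2 fold change of DKO against WT MEFs (horizontal axis) for each gene under DMSO, torin1 and MK-8722, with the 95% confidence interval as a line. Filled points were called and open points were not; *Aldh1l2* lies right of 0 and *Shmt1* and *Mthfd1* left of 0 under all 3 treatments.

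Between genotypes, *Aldh1l2* was higher and *Shmt1* and *Mthfd1* were lower in DKO under every treatment, and none of the serine synthesis genes was called under DMSO. With DMSO 1 of the 9 genes was called higher and 2 lower, against 23.5% and 24.6% of all genes. With torin1 the counts were again 1 higher and 2 lower, against 24% and 27.8%, and with MK-8722 they were 3 higher and 2 lower, against 23.3% and 25.4%. The shares of members called under DMSO and torin1 were not above those of all genes.

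*Aldh1l2* was higher in DKO by 1.89-fold with DMSO (log2 fold change 0.92 ± 0.22, FDR = 0.000898), by 3.4-fold with torin1 (1.76 ± 0.23, FDR = 4e-07) and by 2.42-fold with MK-8722 (1.28 ± 0.22, FDR = 2.8e-05). In these comparisons no DKO library overlapped a WT library. *Shmt1* was lower by 1.35-fold with DMSO (-0.43 ± 0.09, FDR = 0.000268), by 1.65-fold with torin1 (-0.72 ± 0.09, FDR = 4.13e-07) and by 1.76-fold with MK-8722 (-0.82 ± 0.09, FDR = 6.84e-08). *Mthfd1* was lower by 1.25-fold, 1.29-fold and 1.26-fold (FDR = 1.07e-07, 1.07e-08 and 4.68e-08). Neither gene's libraries overlapped between genotypes under any treatment. These 9 calls held with passage as a block, with *Aldh1l2* at 1.04, 1.82 and 1.39 and *Shmt1* at -0.41, -0.69 and -0.8 on the log2 scale.

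*Psph* and *Phgdh* were called higher in DKO with MK-8722, by 1.53-fold (0.61 ± 0.17, FDR = 0.0035) and 1.2-fold (0.27 ± 0.09, FDR = 0.009), with overlapping libraries for both. The *Phgdh* call rested at the threshold of fold change, since it was lost without any 1 of 6 libraries (log2 fold change 0.17 to 0.26), which were the WT torin1 libraries of passages 7 and 11, the WT MK-8722 libraries of passages 8, 9 and 11 and the DKO MK-8722 library of passage 8, and with its near-copies added (0.26, FDR = 0.00894). Without the WT MK-8722 library of passage 7, 8 of the 9 genes were called in that comparison, with *Psat1* (0.31, FDR = 0.00964), *Shmt2* (0.35, FDR = 0.0351) and *Mthfd1l* (0.37, FDR = 0.0151) added. Without all WT libraries of passage 7, 6 members were called higher and 2 lower. In that fit 3413 of all 15489 genes were called higher and 3976 lower. *Psph* was not called under DMSO (0.34 ± 0.17, FDR = 0.091) or torin1 (0.39 ± 0.18, FDR = 0.0643), but it was with passage as a block (0.48, FDR = 0.0124 and 0.52, FDR = 0.0142). Under DMSO it was also called without the WT library of passage 7 (0.49, FDR = 0.0163), and under torin1 without the DKO torin1 library of passage 8 (0.48, FDR = 0.0372). In the block fit *Mthfd1l* was added under torin1 (0.32, FDR = 0.0217) and, with *Shmt2* (0.31, FDR = 0.0227), under MK-8722 (0.35, FDR = 0.0141).

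For the other serine synthesis genes under DMSO, *Psat1* differed between genotypes by 0 (95% confidence interval -0.23 to 0.24) and *Phgdh* by 0.15 (-0.02 to 0.33) on the log2 scale. *Atf4* was lower in DKO with torin1 (-0.3 ± 0.1, FDR = 0.00961) and MK-8722 (-0.41 ± 0.1, FDR = 0.000854), and *Myc* was higher in DKO under all 3 treatments, by 0.74 ± 0.13 with DMSO (FDR = 3.76e-05). With DMSO *Atf4* stood at 393 to 467 CPM in DKO and at 477 to 542 CPM in WT, without overlap. The interferon-stimulated genes moved with genotype as well, as given above, and the part of any of these in the differences of the 9 genes was not tested.

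Over the 6 group means, centred per gene, the pattern of each member was set beside those of 10665 other genes by the root mean square difference on the log2 scale. Nearest to *Phgdh* were *Gm7901* (0.0175) and *Gm9347* (0.0277), pseudogenes that share 37.7% and 18.9% of its 52-base stretches. Nearest to *Psat1* were the serine transporter *Slc1a4* (0.0726) and *Jdp2* (0.0927), and nearest to *Psph* were *Gpt2*, a mitochondrial alanine aminotransferase (0.173), and *Slc6a9* (0.189). *Shmt2* was nearest to the glycyl- and asparaginyl-tRNA synthetases *Gars* (0.0299) and *Nars* (0.0407), and *Mthfd1* to the histidyl-tRNA synthetase *Hars* (0.0236) and *Taf12* (0.0338). *Mthfd2* was nearest to the transferrin receptor *Tfrc* (0.154) and to *Cth*, the cystathionine gamma-lyase (0.175). *Mthfd1l* was nearest to *Desi2* and *Arl14ep*, *Shmt1* to *Snhg3* and *Arhgap29*, and *Aldh1l2* to *Mid1ip1* (0.231). These likenesses rest on 6 group means from the same libraries and are a description.

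In the annotation (GENCODE release vM21, GRCm38) all 9 are protein-coding genes. They lie at chr3:98313170-98339990 (*Phgdh*), chr19:15904678-15947337 (*Psat1*), chr5:129765558-129787449 (*Psph*), chr11:60788104-60811718 (*Shmt1*), chr10:127517123-127522444 (*Shmt2*), chr12:76255298-76319803 (*Mthfd1*), chr10:3973118-4167081 (*Mthfd1l*), chr6:83305691-83325908 (*Mthfd2*) and chr10:83487450-83534140 (*Aldh1l2*). Several overlap a gene on the opposite strand, such as *Shmt1* with *Smcr8* over 184 bases, *Aldh1l2* with *D10Wsu102e* over 1056 bases, *Mthfd1* with *Gm34868* over 19090 bases and *Psph* with *Cct6a* over 452 bases. Whether the counting used the strand is not given in the sources used here.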

How the data were processed

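mRNA of 24 MEF cultures was sequenced as 52-base paired-end reads. Per the study's methods, the authors ran nf-core/rnaseq with STAR and Salmon on GRCm38, considering unique molecular identifiers, and deposited estimated counts per gene, which are neither scaled for library size nor for length. The deposited quantification of each library gives TPM, estimated counts and effective lengths per transcript. Versions of STAR and Salmon, the strand setting and the batch that the methods say was removed are not given in the sources used here.

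Estimated counts were rounded to whole numbers and scaled by TMM in edgeR 4.0.16 (R 4.3.3, limma 3.58.1). Genes with too few counts (filterByExpr, minimum 10) were left out, and 1 quasi-likelihood model was fitted over the 6 groups of 4, with 18 residual degrees of freedom and a biological coefficient of variation of 10.7%. A call needed a Benjamini-Hochberg adjusted p under 0.05 over all genes tested and a fold change of at least 1.2. The tests were checked on simulated data. Log2 CPM used a prior count of 2. TPM and the promoter motifs were handled in Python.

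The 9 genes, the gene lists and the genes named beside the members were chosen with earlier results of these data known. Named beside them were *Tfeb*, *Tfe3*, *Atf4*, *Myc*, examples from each list and the 2 genes nearest to each member in pattern, of which 1 is not reported here. Alternatives were other filters, scalings, tests (DESeq2 1.42.0 and voom), thresholds, a transcript length offset, replicate number or passage as a block, and leaving out each library. Leaving out the WT libraries of passage 7 or the earliest passage of both genotypes, and adding the near-copies of *Phgdh*, were chosen after seeing the data. Replicates at the same passage deviated together within a genotype in 17 of 24 pairs (r over 0.1), against 7 of 24 with the same replicate number.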

Additional observations from a re-analysis of the deposited data

Results flagged for a closer look

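In 3 of the 54 sets of 4 libraries (9 genes in 6 groups), 1 library stood apart from the other 3 by Dixon's criterion. Chance alone flags about 1 set in 20, or 2.7 of 54. *Shmt2* stood at 698 CPM in the WT MK-8722 library of passage 7, where the nearest of the others was 485 CPM. *Mthfd1l* stood at 259 CPM in the DKO MK-8722 library of passage 8, where the nearest was 184 CPM. *Mthfd1* was low at 139 CPM in the WT torin1 library of passage 11, where the nearest was 152 CPM.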

How the results depend on the processing

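The torin1 calls were the steadiest, with 8 to 9 of 9 genes in WT and 9 to 9 in DKO when each library was left out in turn, and the comparison of torin1 with MK-8722 gave 9 to 9 in WT and 8 to 8 in DKO. For MK-8722 against DMSO the range was 2 to 6 in WT and 1 to 7 in DKO. For DKO against WT it was 3 to 4 with DMSO, 3 to 4 with torin1 and 4 to 8 with MK-8722, and for the responses compared between genotypes 0 to 1 with either compound. How many of all genes were called without each library is not given here. Testing against a 1.2-fold change (glmTreat) left 1 MK-8722 call in WT and 0 in DKO. Of all 15401 genes, glmTreat called 190 lower and 766 higher in WT, and 33 lower and 141 higher in DKO. With passage as a block the counts were 5 for MK-8722 in DKO, 5 for DKO against WT with torin1, 2 for the torin1 response and 1 for the MK-8722 response. For DKO against WT with torin1, 3764 of all 15401 genes were called higher in that fit and 4303 lower. Without the DKO libraries of passage 8 the counts were 4 for MK-8722 in DKO and 1 for each response. Without the earliest passage of both genotypes they were 5, 1 and 1. In these fits 689 of 15601 and 999 of 15440 genes were called higher for the torin1 response. For the MK-8722 response 630 and 566 genes were called lower. Without the WT libraries of passage 7, 8 genes differed between genotypes with MK-8722, where 3413 of all 15489 genes were called higher and 3976 lower. *Aldh1l2* was the 1 gene called for its torin1 response without the WT libraries of passage 11 and in a fit of only the groups compared (0.84, FDR = 0.0389), and *Shmt1* the 1 called for its MK-8722 response in DESeq2's Wald test. The cause of these changes was not tested. *Shmt1* with torin1 in WT also lost its call with a filter of 10 counts in every library (-0.25), a length offset (-0.22) and glmTreat (FDR = 0.381). For torin1 against MK-8722 in WT, library size alone, a length offset and glmTreat each left 7 of 9, without *Shmt1* and *Mthfd1*. Of all 15401 genes, 2345, 2911 and 2176 were called lower in these fits. In DKO glmTreat left 7, without *Mthfd1* (FDR = 0.0633), and called 1962 of all genes lower.

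The replicate block gave 9, 5, 9 and 2 calls for torin1 and MK-8722 in WT and then in DKO, and the only call it changed was *Shmt2* with MK-8722 in WT (-0.38, FDR = 0.0424). Of all 15401 genes, 3161, 928, 3129 and 518 were called lower in that fit, in the same order. Over the settings other than leaving out 1 library, 1782 member values gave 25 lost and 46 gained calls, and 2376 values with 1 library left out gave 12 lost and 31 gained, with 0 called values reversed. Scaling by library size alone moved the share of higher among all called genes from 56.5% to 68.2% for torin1 in WT, from 46.3% to 31.9% for DKO against WT with torin1, where the median of all genes moved from -0.036 to -0.164, from 42.5% to 26.5% for the torin1 response and from 55.4% to 66.3% for torin1 against MK-8722 in WT. With 4 cultures of 1 line per group, a difference whose confidence interval includes 0 was not detected in the fit without a block. It is not shown to be absent. Such a difference could still be called with passage as a block, as *Psph* with MK-8722 in DKO was (-0.31, FDR = 0.0368).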
